A study of Homo sapiens with 4 samples.

Results

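Genes grouped as histone variants and polyadenylated histone genes were followed in A549 cells in which the antisense lncRNA USP2-AS1 was knocked down. The genes were taken by symbol, or by the older symbol of the same gene, from a list of 9: H2AX, H2AZ1, H2AZ2, MACROH2A1, H1-2, H1-10, H2BC12, H2BC21 and H2AC6. Of these, 5 (H2AX, H2AZ1, H2AZ2, MACROH2A1 and H1-2) had a row among the 6828 genes of the expression table, and 4 (H1-10, H2BC12, H2BC21 and H2AC6) had none and were not analysed here. A549 is a human lung adenocarcinoma line labelled as epithelial. Cells of the shctrl group carried a PLKO.1 lentivirus with a control shRNA and cells of the shUSP2-AS1 group one with an shRNA against USP2-AS1, and RNA was taken 72 h after infection. Each group had 2 libraries, described by the study as biological replicates. The sources used here do not say which shRNA against USP2-AS1 the sequenced cells received, and effects of that shRNA on other transcripts cannot be told apart from those of the knockdown.

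DNA is wrapped around octamers of the core histones H2A, H2B, H3 and H4, and linker histone H1 binds where DNA enters and leaves the nucleosome. Most histones are made from clustered, intronless genes that are transcribed in S phase, and their mRNAs end in a conserved stem-loop in place of a poly(A) tail. Replacement variants such as H2A.Z, macroH2A, H3.3 and the centromeric CENP-A are made from genes outside the clusters, mostly with introns, and their mRNAs are polyadenylated. H2AX is known to produce both kinds of mRNA. The RNA was selected on poly-T beads, so the values describe mainly polyadenylated transcripts, and the amount of stem-loop mRNA without a tail was not measured.

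The transcript models showed which of the 5 genes follow which plan. In GENCODE release 44, the canonical transcripts of H2AX and H1-2 had 1 exon, those of H2AZ1 and H2AZ2 had 5 exons, and that of MACROH2A1 had 9. A histone-type stem-loop was defined as a stem of 6 base pairs around a loop of 4 bases. The stem had to start with GG paired to CC and to end at the loop in a T-A pair, and the loop had to begin with T. This element was found after the stop codon of H2AX and H1-2. It was not found in the canonical transcripts of H2AZ1, H2AZ2 and MACROH2A1. The same pattern, at any position, occurred in 147 of 20046 protein-coding canonical transcripts (0.733%) and in 65 of 67 other cluster histone genes (97.0%). Both elements are printed 5′ to 3′ with 5 flanking bases where the transcript holds them (hg38), and capitals mark the stem and the loop.
H2AX (chr11:119094893-119094918, minus strand): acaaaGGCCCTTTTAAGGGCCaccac
H1-2 (chr6:26055740-26055764, minus strand): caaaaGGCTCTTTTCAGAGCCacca
The position of the element differed between the pair. In H1-2 it began 27 bases after the stop codon and ended 4 bases before the annotated end of the transcript. In H2AX it began 49 bases after the stop codon, and the annotated transcript ran on for another 1024 bases, so that the model of H2AX describes a longer mRNA that contains the element.

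The promoters of the 5 genes shared the CAAT box, the word CCAAT that nuclear factor Y is known to bind. Promoter windows of 300 bases, 250 before and 50 after the RefSeq start, were searched on both strands. CCAAT was in the window of 5 of 5 genes, in MACROH2A1 only at the second of its annotated starts, and in 34.6% of all 35114 windows. A TATA word (TATAAA or TATATA) was present in H2AX, H2AZ1 and H1-2 and in 13.7% of all windows. The CHR word (TTTGAA or TTCGAA), a cell cycle element bound by the DREAM and MuvB complexes, was present in H2AX, H2AZ1 and H2AZ2 and in 16.4% of all windows. None of the 5 genes had an E2F word (TTTGGCGC, TTTCCCGC, TTTGCCGC or TTTCGCGC), which 3.31% of all windows held. The H1 box AAACACA was present in H1-2 alone of the 5 and in 5.64% of all windows. Word matches describe the letters in these windows and do not show that a factor binds there.

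The 250 bases before the start are shown for H2AX, H2AZ1 and H2AZ2, which were lower in shUSP2-AS1 cells, and for H1-2, which was higher (RefSeq, GRCh38.p14, printed 5′ to 3′ along the gene). Capitals mark CAAT boxes, TATA words, CHR words and H1 boxes on either strand.
H2AX (chr11:119095466-119095715, minus strand): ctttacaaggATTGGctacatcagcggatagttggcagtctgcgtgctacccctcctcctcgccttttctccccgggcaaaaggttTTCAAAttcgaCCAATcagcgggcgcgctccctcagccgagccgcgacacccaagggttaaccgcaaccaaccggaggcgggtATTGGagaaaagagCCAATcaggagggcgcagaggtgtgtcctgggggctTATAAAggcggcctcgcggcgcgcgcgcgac
H2AZ1 (chr4:99950276-99950525, minus strand): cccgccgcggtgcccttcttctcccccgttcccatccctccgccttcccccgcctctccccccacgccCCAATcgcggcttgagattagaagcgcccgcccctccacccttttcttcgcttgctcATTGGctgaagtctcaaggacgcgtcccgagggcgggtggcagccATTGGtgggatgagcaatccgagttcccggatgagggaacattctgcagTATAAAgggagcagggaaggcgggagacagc
H2AZ2 (chr7:44848088-44848337, minus strand): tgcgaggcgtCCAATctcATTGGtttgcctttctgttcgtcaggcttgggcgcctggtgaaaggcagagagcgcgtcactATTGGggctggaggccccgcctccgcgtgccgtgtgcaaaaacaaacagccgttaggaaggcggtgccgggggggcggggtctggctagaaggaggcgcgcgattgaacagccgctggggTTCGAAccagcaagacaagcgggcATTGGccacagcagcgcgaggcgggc
H1-2 (chr6:26056471-26056720, minus strand): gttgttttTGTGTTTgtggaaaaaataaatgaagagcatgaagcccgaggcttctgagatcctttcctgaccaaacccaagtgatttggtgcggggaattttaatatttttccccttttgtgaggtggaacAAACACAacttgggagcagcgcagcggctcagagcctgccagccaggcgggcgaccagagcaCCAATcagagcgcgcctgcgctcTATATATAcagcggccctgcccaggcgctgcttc
In H2AX, CAAT boxes began 240, 153, 81 and 67 bases before the start, and the TATA word began 31 bases before it. H2AZ1 had a TATA word at the same distance of 31 bases and CAAT boxes at 182, 125 and 80 bases, and the gene interval in the expression table begins further upstream than its RefSeq start. The CHR word of H2AX began 164 bases before the start, on the other strand. That of H2AZ1 lay after the start, at bases 5 to 10, and so outside the bases shown. H2AZ2 had no TATA word, and its CAAT boxes lay at 240, 232, 170 and 26 bases with the CHR word at 50 bases. In H1-2, H1 boxes began at 242 and 119 bases, a CAAT box at 57 bases, and overlapping TATA words at 34 and 32 bases.

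**Figure D1:**
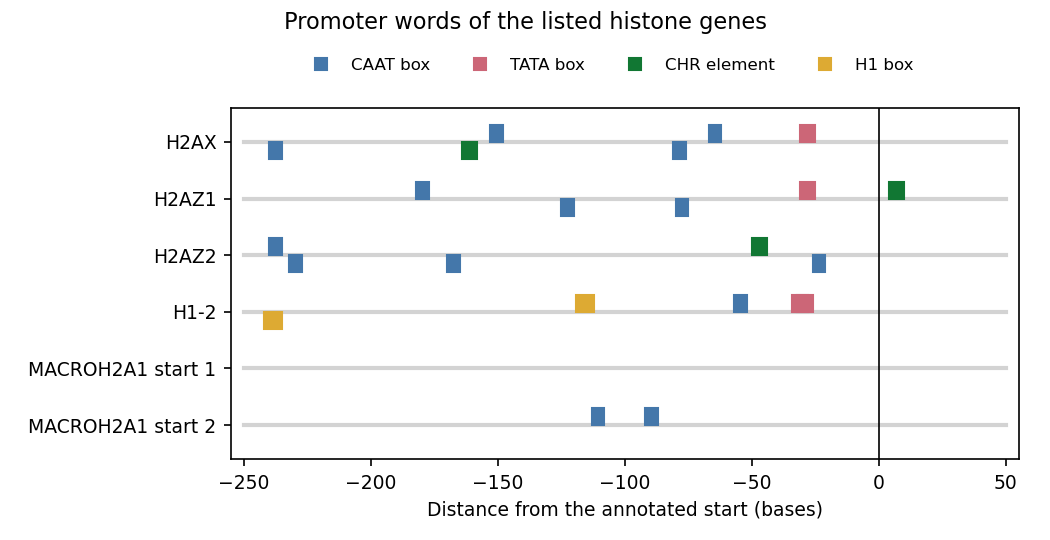
Positions of promoter words in the 300-base windows of the 5 listed histone genes, with 0 at the RefSeq start and the x axis in bases. Boxes above a line are on the strand of the gene and boxes below it on the other strand; the TATA words of H2AX, H2AZ1 and H1-2 lie between 34 and 26 bases before the start, and MACROH2A1 shows CAAT boxes only at the second of its starts.

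The expression table gives read counts scaled by the size factor of each library, called normalized read counts below. It holds only genes that passed an adjusted p of 0.05 in the comparison made for the study, so a row was itself selected on the difference described here. Reads on the listed genes ranged from 10772788 to 14120472 per library. USP2-AS1 itself had 24 and 22 reads under shctrl and 2 and 7 under shUSP2-AS1, a log2 fold change of −2.39 (SE 0.56, n = 2 per group, limma with Benjamini-Hochberg adjusted p = 0.000597). Of the epithelial markers, 4 of 6 had a row (KRT7, KRT8, KRT18 and KRT19), and they did not move together. The log2 fold change was −0.49 for KRT7, −0.77 for KRT8 and −1.05 for KRT18, which was the one past a log2 fold change of 1, while KRT19 was higher at 0.75 (3699 and 3254 against 5689 and 5952). EPCAM and CDH1 had no row. No immune marker (0 of 5) and no endothelial marker (0 of 3) had a row, and 2 of 4 fibroblast markers did. COL1A1 was at 261 and 293 in shctrl and 530 and 618 in shUSP2-AS1 cells, LUM at 1.93 and 1.10 against 25.2 and 15.8, and their part in the results below was not tested.

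Among the listed histone genes, the H2A variants H2AX, H2AZ1, H2AZ2 and MACROH2A1 were lower and the linker histone H1-2 was higher in shUSP2-AS1 cells. In bulk RNA, fewer cells that express a gene and less of its RNA per cell cannot be told apart. A call needed an adjusted p below 0.05 and a log2 fold change of 1 or more in either direction. By this rule H2AX and H2AZ1 were called lower (2 of 5), beside 13.5% of the 6812 genes tested, and H1-2 was called higher (1 of 5), beside 16.1%. In all, 3 of 5 were called, beside 29.7% of genes tested. Of the 5 genes, 4 were lower at an adjusted p below 0.05 alone, as were 49.4% of genes tested. The median log2 fold change was −0.57 for the 5 genes and 0.19 for all genes tested. Among the 6583 genes with at least 10 reads in every library, the median of all genes was −0.16. The sign of this background thus depended on the filter, while the median of the 5 genes stayed at −0.57. Passing the adjusted p says little in this table, since 6811 of 6812 genes (100% after rounding) passed it and in 6811 the groups did not overlap. With so few genes and no row for the other 4, these counts describe the 5 genes and not histone genes in general.

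**Figure D2:**
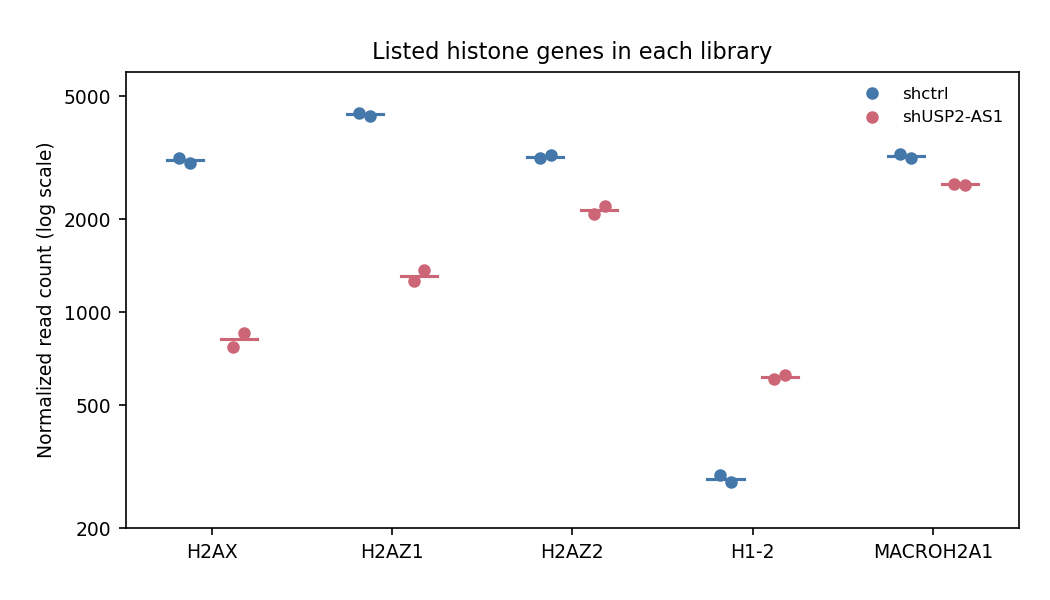
Normalized read counts (log scale, y axis) of the 5 listed histone genes in the 2 shctrl and 2 shUSP2-AS1 libraries; points are libraries and bars are group means. The groups are apart in every gene, with H2AX falling from 3161 and 3046 to 774 and 858 and H1-2 rising from 297 and 281 to 608 and 627.

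H2AX, the H2A variant that is phosphorylated around DNA double-strand breaks, fell the most of the 5 genes (ENSG00000188486, chr11:119093854-119095467, minus strand, hg38). Normalized read counts of 3161 and 3046 under shctrl stood against 774 and 858 under shUSP2-AS1. Both shUSP2-AS1 libraries were far below both shctrl libraries, and the spread within a group was small beside the gap. The mean fell from 3103 ± 80.8 to 816 ± 59.7 (SD, n = 2), a 3.80-fold difference, or 73.7% lower. The log2 fold change was −1.93 (SE 0.06, 95% interval −2.06 to −1.79, limma with Benjamini-Hochberg adjusted p = 3.27e-14). Of all genes tested, 3.82% had a lower log2 fold change than H2AX.

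H2AZ1, the first of the genes for H2A.Z, a variant placed at promoters and regulatory elements, also fell (ENSG00000164032, chr4:99948086-99950355, minus strand). The shctrl libraries had normalized read counts of 4426 and 4318, and the shUSP2-AS1 libraries 1261 and 1366. The means were 4372 ± 76.8 and 1314 ± 74.6 (SD, n = 2), a 3.33-fold difference, or 70.0% lower. The groups did not overlap, and the log2 fold change of −1.74 (SE 0.06, 95% interval −1.86 to −1.62) had a limma adjusted p of 3.02e-14. Of the 50-base windows of its canonical transcript, 8.94% also occur in H2AZP3 or H2AZ1-DT, and none of its 100-base windows does. H2AZ1-DT also overlaps H2AZ1 on the opposite strand in the annotation, and the strand setting of the counting is not known.

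H2AZ2, the second H2A.Z gene, whose protein is nearly the same as that of H2AZ1, fell much less (ENSG00000105968, chr7:44826791-44848087, minus strand). It was at 3153 and 3220 in shctrl cells and at 2081 and 2213 in shUSP2-AS1 cells. The groups were separate, with means of 3186 ± 47.4 and 2147 ± 93.6 (SD, n = 2), or 32.6% lower. Its log2 fold change of −0.57 (SE 0.05, 95% interval −0.68 to −0.45, limma adjusted p = 2.94e-08) was short of the fold threshold, so H2AZ2 was not called. About 30.5% of genes tested had a lower log2 fold change. In the canonical transcript of H2AZ2, 7.32% of 50-base windows also occur among 46 other genes, and 1.95% of 100-base windows in H2AZ2P1.

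The H2A.Z genes were compared within each library, which takes the size factor out. The log2 ratio of H2AZ1 to H2AZ2 was 0.49 and 0.42 under shctrl, and −0.72 and −0.70 under shUSP2-AS1. H2AZ1 therefore went from 1.37 times the normalized read count of H2AZ2 to 0.612 times, a difference in log2 ratio of −1.17. The ratios of the groups did not overlap, and the two-sided exact permutation p was 0.333, the smallest that 2 against 2 libraries allow. These are ratios of reads per gene and not per length.

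MACROH2A1, which encodes the large macroH2A1 variant with a macrodomain, known from the inactive X chromosome and other silent chromatin, fell least among the H2A variants (ENSG00000113648, chr5:135333900-135399914, minus strand). Its normalized read count was 3255 and 3158 in shctrl cells and 2597 and 2591 in shUSP2-AS1 cells. The gap between groups was wider than the gap within them, with means of 3207 ± 68.5 and 2594 ± 4.47 (SD, n = 2), or 19.1% lower. The log2 fold change was −0.31 (SE 0.05, 95% interval −0.41 to −0.20, limma adjusted p = 2.77e-05), and MACROH2A1 was not called. In the annotation MACROH2A1 is overlapped on the opposite strand by PITX1-AS1 and ENSG00000270021. PITX1-AS1 shares 6.91% of the 50-base windows and 4.34% of the 100-base windows of the canonical transcript of MACROH2A1. The sources used here do not state whether counting used strand.

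Set against MACROH2A1 in the same library, H2AX had a log2 ratio of −0.04 and −0.05 in shctrl cells and of −1.75 and −1.59 in shUSP2-AS1 cells. H2AX thus went from 0.968 to 0.314 times the normalized read count of MACROH2A1 (difference −1.62, two-sided exact permutation p = 0.333, the smallest allowed). This pair was chosen after the values were seen and joins the listed H2A variants that fell most and least. The gap was built into that choice, so the ratio describes the values and tests nothing.

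H1-2, a linker histone gene of the chromosome 6 cluster, was the only one of the 5 genes that was higher in shUSP2-AS1 cells (ENSG00000187837, chr6:26055740-26056470, minus strand). Its normalized read count was 297 and 281 in shctrl cells and 608 and 627 in shUSP2-AS1 cells. Both shUSP2-AS1 libraries were above both shctrl libraries, and the mean went from 289 ± 10.8 to 617 ± 13.5 (SD, n = 2), a 2.13-fold rise. The log2 fold change was 1.09 (SE 0.09, 95% interval 0.90 to 1.29, limma adjusted p = 5.62e-09), and 85.8% of genes tested had a lower one. H1-2 lies close to the fold threshold. It was not called with DESeq2's own size factors (log2 fold change 0.98) or with RLE scaling (0.98), nor in a limma test against a fold change of 2 (adjusted p = 0.675). Both rescalings were estimated anew from the listed genes alone, which were selected on the difference between the groups. The call as reported used the values as scaled by the authors. H1-2 also had the fewest reads of the 5 genes, and its mean value exceeded that of 36.4% of genes tested, against 80.7 to 88.0% for the others.

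**Figure D3:**
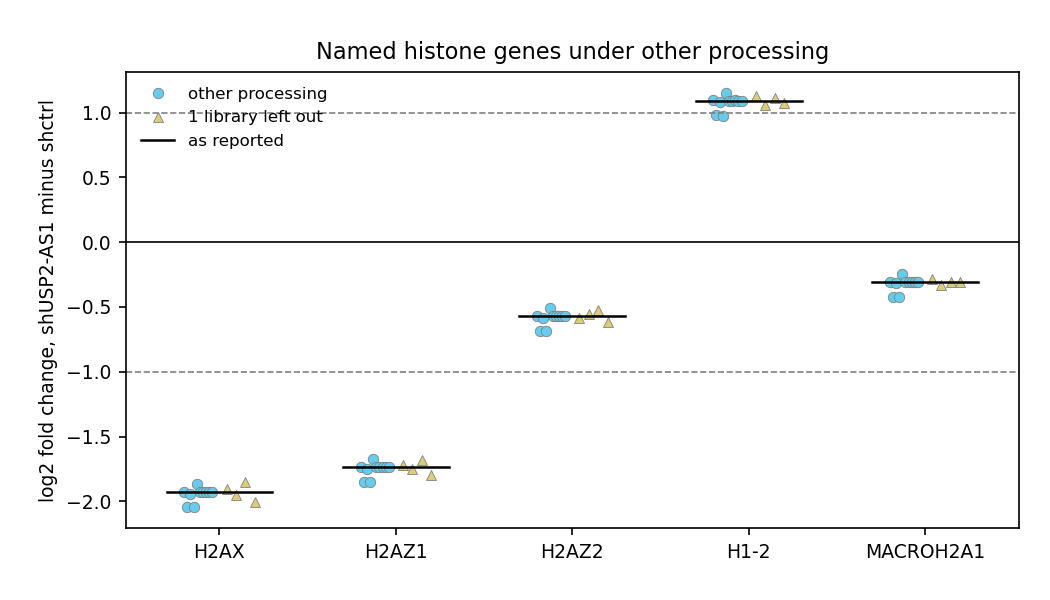
log2 fold change (shUSP2-AS1 minus shctrl, y axis) of the 5 histone genes as reported (line), under 10 other ways of processing (circles) and with 1 library left out (triangles); dashed lines mark a log2 fold change of 1 and −1. H2AX and H2AZ1 stay beyond −1 throughout, and H1-2 ranges from 0.98 to 1.15 across the threshold.

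Levels between genes were compared per kilobase of gene length, and the order depended on the length used. With the gene length in the table, H2AZ1 (1950 and 1902 per kilobase) and H2AX (1958 and 1887) led in shctrl cells and did not differ beyond their spread. H2AZ2 (450 and 460), H1-2 (406 and 385) and MACROH2A1 (184 and 178) followed. In shUSP2-AS1 cells H1-2 led with 831 and 858 per kilobase, above H2AZ1 (555 and 602) and H2AX (480 and 532), and H2AZ2 (297 and 316) and MACROH2A1 (147 and 146) were the lowest. With the length of the canonical transcript, which is 866 bases for H2AZ1 against 2270 in the table and 1917 for MACROH2A1 against 17730, the mean in shctrl cells was 5049 per kilobase for H2AZ1, 1949 for H2AX, 1673 for MACROH2A1, 1053 for H2AZ2 and 395 for H1-2. On this scale the means in shUSP2-AS1 cells were 1517 for H2AZ1, 1353 for MACROH2A1, 845 for H1-2, 710 for H2AZ2 and 513 for H2AX. By the canonical length, H2AX was below H2AZ1 alone in shctrl cells and below all 4 others in shUSP2-AS1 cells. The reads were counted per gene and may include bases outside the canonical transcript. The canonical and gene lengths were close for H2AX (1592 against 1614) and far apart for others such as H2AZ2 (3026 against 7003), so this order may rest on the length chosen.

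Other histone genes with a row included the replacement genes CENPA and H3-3B, both lower, and 2 of 67 further cluster genes, both higher. CENPA, the centromeric H3 variant, was at 519 and 448 in shctrl cells and at 114 and 95.1 in shUSP2-AS1 cells. It was called lower, with a log2 fold change of −2.20 (SE 0.13, limma adjusted p = 6.2e-11), and exceeded H2AX in size. H3-3B, which encodes H3.3, was at 8245 and 7950 against 6323 and 6593 (log2 fold change −0.33, limma adjusted p = 7.03e-06). H3-3B did not reach the fold threshold, though its groups were separate.

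The cluster genes H4C8 and H2BC5, which encode canonical H4 and H2B, moved in the direction of H1-2. H4C8 was at 47.3 and 51.7 in shctrl cells and 115 and 155 in shUSP2-AS1 cells, and was called higher (log2 fold change 1.41, SE 0.20, limma adjusted p = 4.69e-06), though not in the test against a fold change of 2. H2BC5 went from 166 and 159 to 247 and 228 (0.54, limma adjusted p = 0.000626) and was not called. Both have the stem-loop, which ends 5 bases before the end of their canonical transcripts, as it ends 4 bases before that of H1-2. The gene length given by the authors is longer than the canonical transcript, 871 against 486 bases for H2BC5 and 2163 against 409 for H4C8. Their other transcripts were not searched, so the stem-loop may lie further from the end in some of them. CENPA and H3-3B have none. Thus of the 9 histone genes described here, the 3 cluster genes, whose stem-loop stands at the end of the canonical transcript, were higher. The 6 others, whose canonical transcript has no stem-loop or, in H2AX, one far from the end, were lower. This split was noticed with the values in view and carries no test. The 3 cluster genes also had the lowest mean values of the 9 in shctrl cells. These were 49.5 for H4C8, 163 for H2BC5 and 289 for H1-2, with CENPA next at 484. Whether the split goes with expression level was not tested. The sources used here do not say whether the reads of the cluster genes came from polyadenylated or stem-loop ends.

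**Figure D4:**
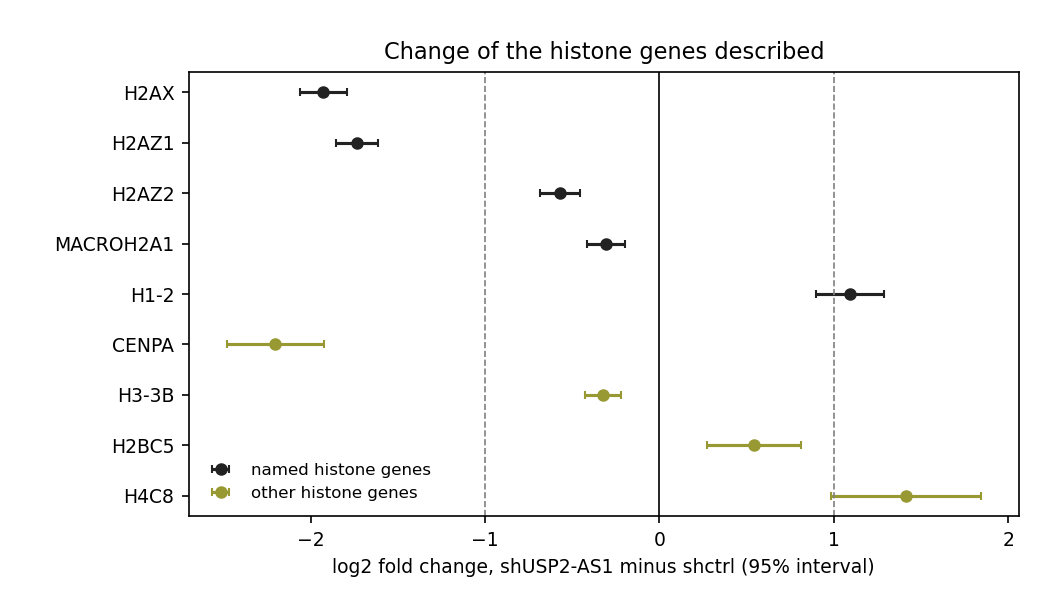
log2 fold change (shUSP2-AS1 minus shctrl, x axis) of the 9 histone genes described here; points are limma estimates, bars their 95% intervals, and dashed lines a log2 fold change of 1 and −1. CENPA, H2AX and H2AZ1 lie below −1, and H1-2, H2BC5 and H4C8 are the genes above 0.

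Of a list of 16 genes that make and finish histone mRNA, 10 were tested, and 9 were lower and 1 was higher, beside 49.4% lower among all genes tested. The calls were 4 lower and none higher, beside 13.5% and 16.1% of all genes tested, and the median log2 fold change was −0.87. The called genes were NCBP1 (log2 fold change −1.10), the large subunit of the nuclear cap-binding complex, SRRT (−1.03), its partner ARS2, SLBP (−1.02), which binds the stem-loop, and ERI1 (−1.62), an exonuclease that trims the end of histone mRNA. SLBP was at 1145 and 1170 in shctrl cells and at 559 and 581 in shUSP2-AS1 cells (limma adjusted p = 5e-10). CPSF2, a subunit of the cleavage complex, had a log2 fold change of −0.84 and was not called. TUT7, a terminal uridylyltransferase, was the exception with 0.41. Calls near the threshold moved both ways under other processing. With upper quartile scaling 2 genes were called, and with DESeq2's own size factors or RLE scaling 5 were. In the test against a fold change of 2, 1 gene was called.

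Histone chaperones, which escort histones to and from chromatin, had the lowest median of the lists, −1.43. Of 30 chaperone genes, 19 were tested, 17 were lower and 2 higher, beside 49.4% lower among all genes tested. The calls were 12 lower and 1 higher, beside 13.5% and 16.1% of all genes tested. HJURP, the chaperone of CENP-A, went from 3206 and 3247 to 939 and 917 (log2 fold change −1.80, limma adjusted p = 2.07e-14). SUPT16H, a subunit of FACT, which handles H2A-H2B dimers, was at −1.51, SET, an H3 and H4 chaperone and phosphatase inhibitor, at −1.43, and nucleolin (NCL) at −1.27. APLF, a chaperone with a role in DNA repair, was called higher at 1.04, and ASF1A, an H3-H4 chaperone, was at 0.45 without a call. APLF was called in 10 of 14 alternatives.

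Of 32 genes of the SRCAP, TIP60-p400 and INO80 complexes, which place and remove H2A.Z, and of H2A.Z readers and removers, 19 were tested. Of these 16 were lower and 3 higher, beside 49.4% lower among all genes tested, with a median of −0.72. The calls were 4 lower and none higher, a share near the 13.5% called lower among all genes tested, so the calls are no result about the list. ANP32E, which removes H2A.Z from chromatin, fell from 1629 and 1631 to 517 and 503 (log2 fold change −1.67, limma adjusted p = 4.14e-13). UCHL5 (−1.30), a deubiquitinase found in INO80 and the proteasome, MRGBP (−1.30) and ACTL6A (−1.06) were the other called genes. The ATPases RUVBL2 (−0.93) and RUVBL1 (−0.92), which these complexes share, were lower but not called. The catalytic subunits SRCAP (−0.73), EP400 (−0.21) and INO80 (−0.38) were not called either. ZNHIT1 (0.31), INO80C (0.54) and MORF4L1 (0.20) were the genes above 0.

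Genes that phosphorylate H2AX, remove the mark or read it gave 9 tested of 19, with 8 lower and 1 higher, beside 49.4% lower among all genes tested, and a median of −0.70. The calls were 2 lower and none higher, which with so few genes lies near the 13.5% called lower among all genes tested and is no result about the list. TOPBP1, a scaffold that activates the kinase ATR, went from 1223 and 1261 to 497 and 432 (log2 fold change −1.42, limma adjusted p = 3.1e-11) and was called. PRKDC, the catalytic subunit of DNA-dependent protein kinase, was at −0.71, and BAZ1B, which phosphorylates a tyrosine of H2AX, at −0.66, neither of them called. PPM1D, the phosphatase WIP1 that removes the mark, was the gene above 0, at 0.76. Over the 4 lists every tested gene passed the adjusted p, as did 100% of genes in the table, and no gene of these lists changed direction in any of the 14 alternatives.

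**Figure D5:**
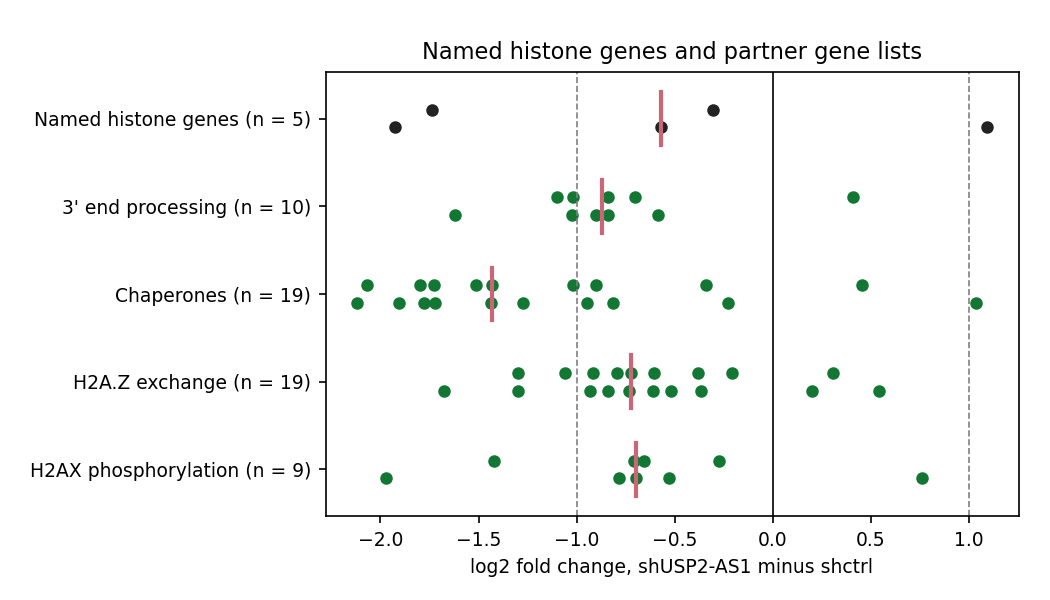
log2 fold change (shUSP2-AS1 minus shctrl, x axis) of the 5 listed histone genes and of the tested genes of 4 partner lists; each point is a gene, red bars are medians, and dashed lines mark 1 and −1. The medians are −0.57, −0.87, −1.43, −0.72 and −0.70 from top to bottom. Over all genes tested the median is 0.19, and −0.16 over genes with at least 10 reads in every library.

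For each of the 5 histone genes, the most alike genes were those with a mean value within 2-fold and the smallest Euclidean distance of centred log2 values over the 4 libraries. For H2AX they were POLD1, the catalytic subunit of DNA polymerase delta (distance 0.0366, log2 fold change −1.91), and MCM4, a subunit of the replicative helicase (0.0651, −1.91), among 2107 candidates. For H2AZ1 they were C19orf48 (0.0611) and DDX23, an RNA helicase of the spliceosome (0.0711), among 1552. SAFB, a nuclear scaffold attachment factor (0.0150), and CDC37, a cochaperone of HSP90 (0.0227), were closest to H2AZ2 among 1658. CGN, the tight junction protein cingulin (0.0511), and C6orf141 (0.0571) were closest to H1-2 among 2550, and PPP6R1, a regulatory subunit of protein phosphatase 6 (0.0236), and ADH5, an alcohol dehydrogenase (0.0267), were closest to MACROH2A1 among 1523. With 4 libraries in 2 groups this distance mostly ranks genes by how near their fold change is.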

How the data were processed

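RNA-seq was analysed for A549 cells infected with shctrl or shUSP2-AS1 lentiviruses, with 2 libraries per group. Sequencing and primary analysis were done by Novogene. The submitters' processing notes name HISAT2 2.0.5, featureCounts 1.5.0-p3, DESeq2 1.20.0 and hg38. The annotation release and the strand setting are not given in the sources used here. For every gene the authors deposited a signal in each library, the read count scaled by a size factor, and the gene length in bases. Dividing by the value of 1 read (0.966 and 1.10 in shctrl, 1.05 and 0.880 in shUSP2-AS1) gave whole reads for 100% of values, within 0.02 of a whole number. The deposited table also has the authors' own comparison (log2 fold change, p-value, adjusted p-value), used here only to check that all rows lie below an adjusted p-value of 0.05. Table columns were assigned to groups by their names, scr as the control and sh216 as the other arm.

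limma 3.58.1 (R 4.3.3) was fitted to log2(value + 1) over all 4 libraries with lmFit and eBayes with a trend. Genes with a mean of at least 10 were tested (6812, leaving out 16), and p-values were adjusted by Benjamini-Hochberg over these. Fold changes are on the log2(value + 1) scale. edgeR 4.0.16 and DESeq2 1.42.0 on recovered reads were alternatives, as were TMM, RLE and upper quartile scaling, other filters, a pseudocount of 0.1, a replicate block, leaving out each library, and a test against a fold change of 2. The fits were also run on simulated counts in which a small set of genes was changed by a known fold. Nearly all genes differ in these data, so that run checked the code and not the calls made here. Counts of replicates varied beyond sampling noise, with a chi-square per degree of freedom of 3.75 (shctrl) and 3.84 (shUSP2-AS1).

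The histone genes and gene lists were chosen with earlier results of these data known. Named genes were the 9 histone genes, every other histone gene listed, the 4 tested genes of each partner list with the lowest p, the 2 most alike genes per histone gene, and USP2-AS1. Other partner genes were named after their values were seen, where 5 or fewer made up a count. Values of some genes that the rule would name are not reported here. Promoters came from RefSeq and transcripts from GENCODE release 44, in which the interval of H2AZ1, H2AZ2 and H1-2 was the same as in the table.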

Additional observations from a re-analysis of the deposited data

How the results depend on the processing

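H2AX and H2AZ1 were called in all 14 alternatives and H2AZ2 and MACROH2A1 in none, and none of the 5 genes changed direction. Over the 10 alternatives that kept every library, the log2 fold change ranged from −2.05 to −1.87 for H2AX, −1.85 to −1.68 for H2AZ1, −0.69 to −0.51 for H2AZ2, 0.98 to 1.15 for H1-2 and −0.42 to −0.25 for MACROH2A1. H1-2 was called in 11 of 14. RLE scaling, estimated like the other rescalings from the listed genes alone, moved the median log2 fold change of all genes by −0.12. The calls of all genes were then 1143 lower and 934 higher, against 922 lower and 1098 higher as reported. With at least 10 reads required in every library, the median of all genes was −0.16 against 0.19 as reported. That filter left 6583 genes, of which 861 were called lower and 930 higher. In the test against a fold change of 2, 1064 of 2020 genes remained called, 1 other histone gene (CENPA) of 2, and 1 gene of the 3′ end processing list of 4. With upper quartile scaling 2 genes of that list were called, and with DESeq2's own size factors or RLE scaling 5 were. Leaving out 1 library gave 2 to 5 calls in that list, 1965 to 2055 over all genes, and a log2 fold change of H1-2 between 1.05 and 1.13, with the lone library assumed to vary like the other group.

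Replicate numbers gave no sign of pairing the libraries (correlation of replicate differences across genes −0.04). A single correlation over genes selected on the group difference cannot show that they were unpaired. With the replicate block the same 3 histone genes were called, and 2020 genes in all. The planned ratios with H1-10, H2AC6, H2BC12 and H2BC21 could not be formed, because these genes have no row. The ratio of H2AX to MACROH2A1 was chosen after seeing the data in their place. Depth limits USP2-AS1, with 2 to 24 reads, and LUM most.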
